A study of Homo sapiens with 18 samples.

Results

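The transcripts of 8 SOX genes of the SOXB and SOXC groups were followed from human pluripotent stem cells through the first 4 days of neural differentiation. They are SOX1, SOX2 and SOX3 of group SOXB1, SOX14 and SOX21 of group SOXB2, and SOX4, SOX11 and SOX12 of group SOXC. They were taken by symbol from a table of 37550 rows that lists TPM (a transcript level corrected for transcript length and scaled to the same total in every library). All 8 were found, and 7 reached 1 TPM in at least 2 libraries and entered the test, among 17033 genes; SOX14 did not. Promoter sequences of 6 of the 8 were found in the RefSeq table of gene starts.

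The study compared 2 kinds of neural ectoderm, the embryonic tissue that forms the brain, made from H1, an established line of wild-type human embryonic stem cells. H1 is 1 line, and each of the 9 groups has 2 libraries, which the series' design calls biological replicates. Undifferentiated cells on day 0 are the group hPSC. All other groups received, on day 1, A8301 (1 µM), which blocks activin and TGF-β receptors, LDN193189 (100 nM), which blocks BMP receptors, Trametinib (250 nM), which blocks MEK, and C59 (1 µM), which blocks WNT secretion. Anterior neural ectoderm (aNE) then received A8301, LDN193189 and C59 at the same doses, with Thiazovivin, a ROCK inhibitor that helps replated cells survive, until day 2. Posterior neural ectoderm (pNE) received A8301 and LDN193189 at those doses with TTNPB (50 nM, a retinoic acid receptor agonist), FGF2 (20 ng/mL), XAV939 (1 µM, which lowers WNT signalling) and Thiazovivin. Each day 2 population was then carried to day 4 in forebrain, midbrain or hindbrain medium, which gave the groups aNE_T, aNE_M, aNE_H, pNE_T, pNE_M and pNE_H. The day 3 forebrain medium held XAV939 (1 µM), LDN193189 (100 nM) and FGF2 (20 ng/mL), and the composition of the other 2 media was not used here. Cells were plated at 37500 per cm2 for day 2. For day 4 they were plated at 75000 per cm2 in the anterior and 150000 per cm2 in the posterior branch. Origin and density therefore cannot be told apart at day 4. Day 4 groups also differ from day 2 groups in time and density, so neither can be told apart from the medium in that comparison.

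Libraries of 1 group correlated at 0.982 to 0.987 on the log2(TPM + 1) scale and those of different groups at 0.879 to 0.968. Each of the 18 libraries was closest to its own replicate. Between 13686 and 14679 genes reached 1 TPM per library, and read depth is unknown from TPM. A summed list of 8 pluripotency markers fell from 4306 to 4319 TPM in hPSC to at most 509 TPM at day 2. A summed list of 8 neural ectoderm markers without SOX genes rose from 21.7 to 23.8 TPM in hPSC to at least 147 TPM in every other library. CDH2 led this sum at a mean of 175 TPM in aNE_M and 85.3 in pNE_H. By the test below, 3 of the 8 were called higher and 3 lower in aNE_M than in aNE (12% of all genes called). In pNE_M 2 were called higher and 4 lower than in pNE (12.7% of all genes called). PAX6, LHX2 and SIX3 were called lower in both comparisons. These are bulk samples, so fewer cells of a type and less RNA per cell cannot be told apart. The p-values measure the spread between 2 libraries per group, pooled over the 9 groups.

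SOX proteins bind DNA through an HMG box, a domain that bends the double helix, and most act with partner factors such as the POU proteins. SOXB1 proteins are activators that keep cells in the pluripotent or neural progenitor state and can stand in for one another in many settings. SOXB2 proteins carry a repressor domain and are known to oppose SOXB1 factors as progenitors start to differentiate. SOXC proteins are activators best known from young neurons, though they are also made in many dividing embryonic cells.

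Each of the 8 genes has 1 transcript of 1 exon in GENCODE v29, so a level is not split over isoforms. On GRCh38.p14, SOX2 is at chr3:181711925-181714436 on the plus strand, SOX3 at chrX:140502985-140505069 on the minus strand and SOX21 at chr13:94709622-94712545 on the minus strand. SOX1 is at chr13:112067149-112071706 on the plus strand, and SOX14 at chr3:137764315-137766334 on the plus strand. The SOXC genes are on the plus strand, SOX4 at chr6:21593751-21598619, SOX11 at chr2:5692384-5701385 and SOX12 at chr20:325552-330224. SOX2 lies inside SOX2-OT on the same strand, SOX11 overlaps AC108025.2 on the same strand, SOX4 overlaps AL512380.2 on the opposite strand and SOX12 overlaps NRSN2-AS1 on the opposite strand. None of these 4 overlapping genes, nor SOX1-OT or SOX21-AS1, has a row under that symbol in the table, and whether the counting used strand is not given in the sources used here, so reads of an overlapping pair may not be separated.

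The 250 bases before the start of SOX2, SOX3 and SOX21 are printed here because these 3 genes had the largest falls in level among the members above 10 TPM at day 2. SOX4 is printed beside them as the gene whose promoter held the most matches to the CCAAT box, a common promoter motif. The sequences are from RefSeq on GRCh38.p14, in the direction of the gene, and capitals mark CCAAT or its reverse complement ATTGG. They cover chr3:181711675-181711924 (plus strand) for SOX2, chrX:140505070-140505319 (minus strand) for SOX3, chr13:94712546-94712795 (minus strand) for SOX21 and chr6:21593501-21593750 (plus strand) for SOX4.
SOX2: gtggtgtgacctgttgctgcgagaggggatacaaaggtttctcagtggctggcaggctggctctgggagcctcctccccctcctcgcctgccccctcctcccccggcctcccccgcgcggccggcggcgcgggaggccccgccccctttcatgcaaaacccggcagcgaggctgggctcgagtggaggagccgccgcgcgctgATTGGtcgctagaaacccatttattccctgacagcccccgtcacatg
SOX3: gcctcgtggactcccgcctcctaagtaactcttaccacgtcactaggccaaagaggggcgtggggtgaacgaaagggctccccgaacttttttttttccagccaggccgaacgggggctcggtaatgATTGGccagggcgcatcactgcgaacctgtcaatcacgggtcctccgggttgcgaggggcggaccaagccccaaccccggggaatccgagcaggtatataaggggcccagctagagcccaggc
SOX21: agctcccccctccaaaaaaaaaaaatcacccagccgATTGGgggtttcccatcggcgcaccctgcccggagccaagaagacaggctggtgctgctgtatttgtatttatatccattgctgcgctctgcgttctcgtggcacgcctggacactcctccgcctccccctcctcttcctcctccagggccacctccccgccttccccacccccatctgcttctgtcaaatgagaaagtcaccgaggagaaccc
SOX4: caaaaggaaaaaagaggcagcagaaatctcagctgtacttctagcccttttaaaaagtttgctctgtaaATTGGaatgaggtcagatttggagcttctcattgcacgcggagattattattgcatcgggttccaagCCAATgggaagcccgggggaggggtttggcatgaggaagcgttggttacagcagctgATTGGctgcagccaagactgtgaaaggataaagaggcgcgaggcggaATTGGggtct

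CCAAT was found on either strand in 5 of the 6 promoters, all but that of SOX1, and in 32.0% of 35116 promoters of the same length. It lay 47 bases before the start of SOX2, 123 before SOX3, 214 before SOX21 and 196 before SOX12. The 4 matches of SOX4 lay 181, 114, 57 and 10 bases before its start. The octamer ATGCAAAT, the sequence bound by POU factors, was found in SOX12 alone, against 1.63% of all promoters, and its match did not overlap the CCAAT match. The core SOX motif ACAAT was found in 0 of the 6, against 24.6% of all promoters. TATAAA was found in SOX21 alone, on the strand opposite to the gene, against 10.7%. AGGTCA, the core element of nuclear receptors including those for retinoic acid, was found in SOX2 and SOX4, against 12.1%. The share of G and C ran from 48.8% in SOX4 to 82% in SOX1, around a median of 58% over all promoters. These matches describe letters in this window only.

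SOX2, a core factor of both pluripotent and neural stem cells, was high in every library and highest in anterior cells in forebrain medium. It was at 194 and 188 TPM in hPSC, at 289 and 297 in aNE and at 181 and 211 in pNE. In forebrain medium it reached 457 and 453 TPM in the anterior and 239 and 234 in the posterior branch. At day 4 anterior cells had 73.2 and 70.4 TPM in midbrain medium and 97.7 and 79.8 in hindbrain medium. Posterior cells had 127 and 103 TPM in midbrain medium and 101 and 87.0 in hindbrain medium. The 2 aNE_T libraries lay above all others, and the 8 libraries from midbrain or hindbrain medium lay below all 10 others. The groups ranked aNE_T, aNE, pNE_T, pNE, hPSC, pNE_M, pNE_H, aNE_H and aNE_M from high to low, and pNE overlapped hPSC and pNE_H overlapped aNE_H. The highest mean was 6.34 times the lowest.

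SOX3, the SOXB1 gene on the X chromosome and an early marker of neural progenitors, was higher at day 2 than in stem cells and lowest in posterior cells in midbrain and hindbrain media. Its levels were 23.4 and 19.4 TPM in hPSC, 207 and 189.5 in aNE and 91.9 and 121 in pNE. Anterior cells then held 141 and 134 TPM in forebrain, 47.1 and 35.7 in midbrain and 34.7 and 28.1 in hindbrain medium. Posterior cells held 40.2 and 33.4 TPM in forebrain, 2.72 and 2.15 in midbrain and 5.87 and 3.85 in hindbrain medium. The 4 libraries of pNE_M and pNE_H were the only ones below the hPSC libraries. From high to low the groups ranked aNE, aNE_T, pNE, aNE_M, pNE_T, aNE_H, hPSC, pNE_H and pNE_M, with overlap between neighbours only from aNE_M to pNE_T and from pNE_T to aNE_H. The highest mean was 81.6 times the lowest.

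SOX1, often used as the marker of committed neural ectoderm, was low throughout and highest in anterior cells at day 2 and in forebrain medium. It was at 0.0176 and 0 TPM in hPSC, 7.73 and 6.66 in aNE and 1.05 and 1.22 in pNE. In anterior cells at day 4 it was at 4.95 and 4.10 TPM in forebrain, 0.316 and 0.530 in midbrain and 0.727 and 0.395 in hindbrain medium. In posterior cells it was at 1.75 and 1.02 TPM in forebrain, 1.03 and 1.34 in midbrain and 0.0851 and 0.131 in hindbrain medium. The 4 libraries of aNE and aNE_T lay above all others, with no overlap between aNE and aNE_T. SOX1 reached 1 TPM in 10 of 18 libraries, so most of its group values sit near the constant of 1 added before the logarithm.

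**Figure D1:**
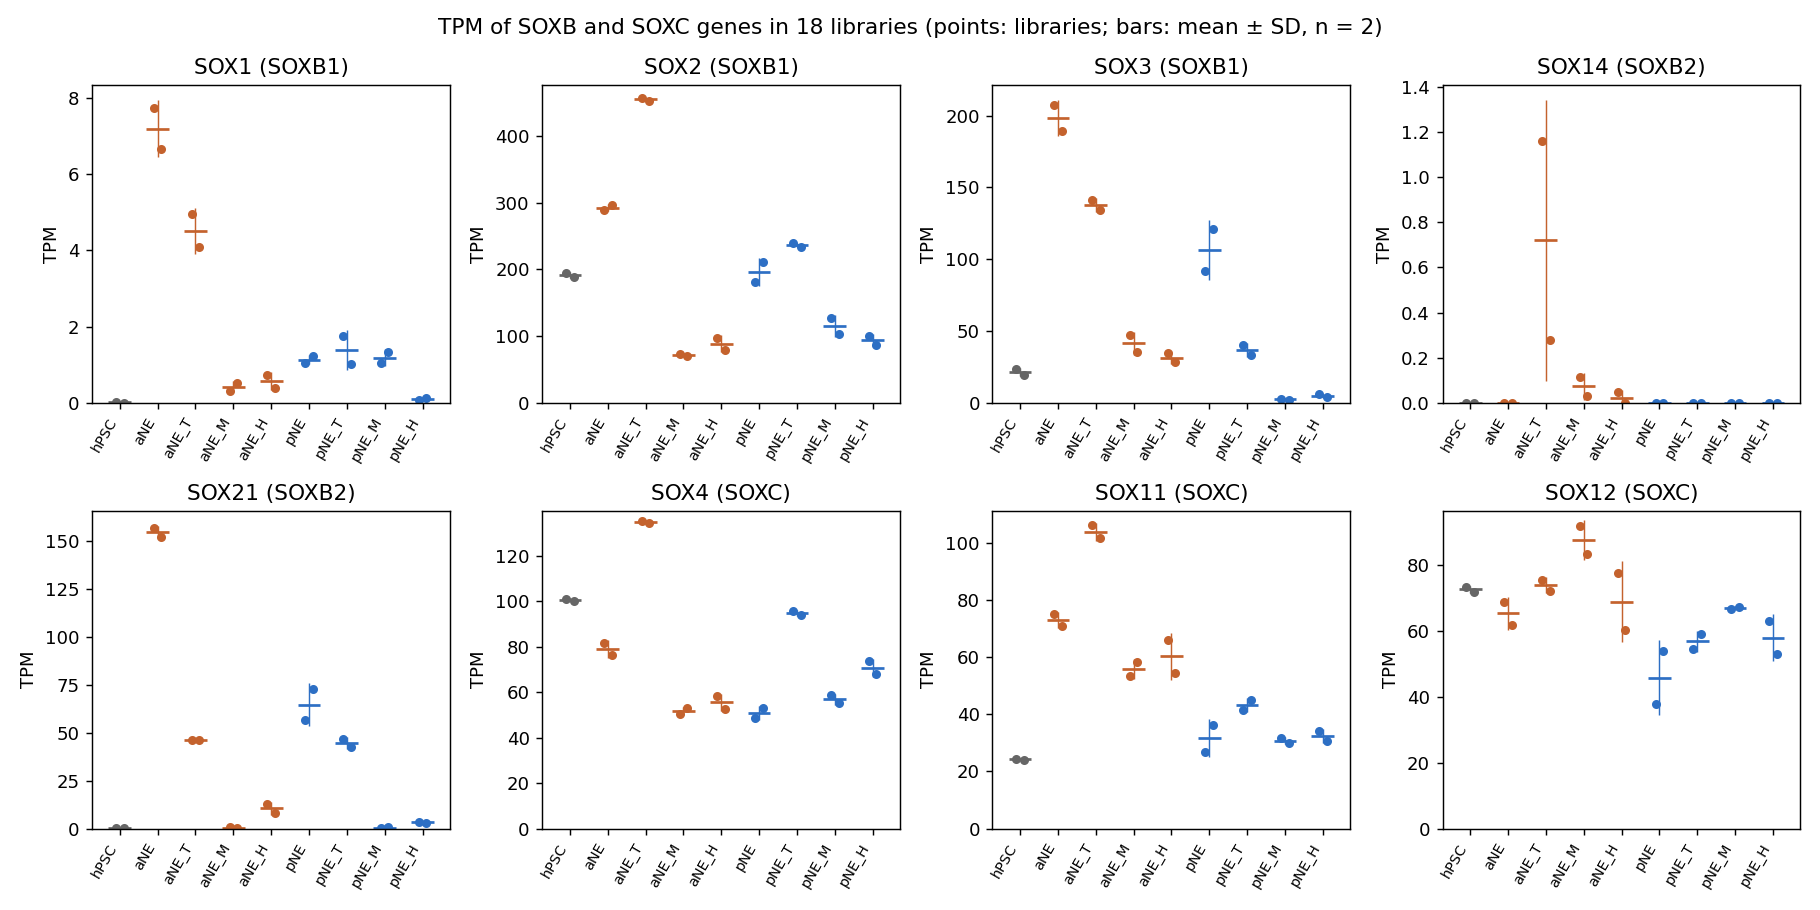
Level of each of the 8 genes in TPM (vertical axis, linear, with its own range for each gene) in the 9 groups; points are the 2 libraries, horizontal bars the mean and vertical bars 1 SD. SOX2 is at 70.4 TPM or more in every library, and the means of SOX12 differ by at most 1.91-fold. In midbrain and hindbrain media SOX21 is at 12.9 TPM or less. The SOX3 means there are 2.43 and 4.86 TPM in posterior cells but 41.4 and 31.4 in anterior cells, above hPSC at 21.4.

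SOX21, the SOXB2 gene that marks neural progenitors and limits SOXB1 activity, had the widest range of the 8. It was listed at 0.171 and 0.190 TPM in hPSC and at 157 and 152 TPM in aNE, while pNE had 56.8 and 72.6 TPM. At day 4 in forebrain medium the 2 branches had 46.0 and 46.3 TPM (anterior) and 46.7 and 42.5 TPM (posterior), which overlapped. In hindbrain medium SOX21 was at 12.9 and 8.15 TPM in anterior and 3.62 and 3.02 TPM in posterior cells. In midbrain medium SOX21 was at 0.613 and 0.440 TPM in anterior and 0.167 and 0.619 TPM in posterior cells, and both midbrain groups lay below 1 TPM in each library. The order of the means was aNE, pNE, aNE_T, pNE_T, aNE_H, pNE_H, aNE_M, pNE_M and hPSC, with overlap between aNE_T and pNE_T, between aNE_M and pNE_M and between pNE_M and hPSC. The highest mean was 857 times the lowest.

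SOX14, the other SOXB2 gene, which is known from small groups of postmitotic neurons, was near the limit of detection. It was listed at 0 in 13 of 18 libraries, among them all 8 pNE and pNE-derived ones and all hPSC and aNE libraries. The aNE_T libraries had 1.16 and 0.280 TPM, the aNE_M libraries 0.116 and 0.0318 and the aNE_H libraries 0.0469 and 0. One library reached 1 TPM, so no test was made.

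SOX4, a broadly made SOXC gene, stayed within a narrow band. It was at 101 and 100.0 TPM in hPSC, 81.6 and 76.1 in aNE and 48.5 and 52.9 in pNE. In forebrain medium it was at 135 and 134 TPM in anterior and 95.6 and 93.8 in posterior cells. At day 4 anterior cells had 50.4 and 52.9 TPM in midbrain medium and 58.2 and 52.8 in hindbrain medium. Posterior cells had 58.5 and 55.1 TPM in midbrain medium and 73.5 and 67.8 in hindbrain medium. The aNE_T libraries were highest, with no overlap, followed by hPSC and pNE_T. The 4 groups pNE_M, aNE_H, aNE_M and pNE, lowest in level, each overlapped the next. The highest mean was 2.66 times the lowest.

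SOX11, the SOXC gene most tied to neuronal genes, separated the 2 origins. It was at 24.4 and 24.0 TPM in hPSC, 75.0 and 71.1 in aNE and 26.9 and 36.4 in pNE. Anterior cells at day 4 had 106 and 102 TPM in forebrain, 53.4 and 58.2 in midbrain and 66.2 and 54.4 in hindbrain medium. Posterior cells had 41.5 and 44.9 TPM in forebrain, 31.6 and 30.0 in midbrain and 34.1 and 30.8 in hindbrain medium. Each of the 8 libraries of anterior origin lay above each of the 8 of posterior origin, and the hPSC libraries lay below both. Among neighbours in rank, aNE_H overlapped aNE_M, and pNE_H, pNE and pNE_M overlapped in turn.

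SOX12, the third SOXC gene and a weaker activator than the other two, had the smallest ratio of highest to lowest mean among the 7 tested genes. Its levels ran from 45.8 ± 11.4 TPM (SD, n = 2) in pNE, with 37.8 and 53.9 in the 2 libraries, to 87.6 ± 6.01 in aNE_M, with 91.9 and 83.4. That ratio was 1.91. The 7 groups between these 2, which include hPSC at 72.7 ± 1.16 TPM, overlapped their neighbours in rank among those 7. SOX12 was called in none of the comparisons that follow (limma).

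Both the sum and the makeup of the SOXB1 group changed. SOX1, SOX2 and SOX3 together came to 213 ± 7.17 TPM in hPSC (SD, n = 2), 498 ± 7.48 in aNE and 303 ± 42.2 in pNE. At day 4 the sum was 597 ± 7.99 TPM in aNE_T and 275 ± 8.74 in pNE_T, and between 98.8 ± 11.2 and 121 ± 17.6 in the 4 midbrain and hindbrain groups. SOX2 made up 89.9 ± 0.991% of it in hPSC, 58.8 ± 2.05% in aNE, 63.4 ± 3.80% in aNE_M and 96.9 ± 0.279% in pNE_M. The ratio of SOX2 to SOX3 in TPM was 8.99 ± 0.979 in hPSC, 1.48 ± 0.123 in aNE and 1.85 ± 0.158 in pNE. It was 1.76 ± 0.297 in aNE_M but 47.4 ± 0.969 in pNE_M, and 2.82 ± 0.0128 in aNE_H but 19.9 ± 3.82 in pNE_H. In forebrain medium the ratio was 3.30 ± 0.101 in aNE_T and 6.47 ± 0.743 in pNE_T. Anterior cells held more SOX3 per SOX2 than posterior cells at day 2 and in all 3 media. The SOXB1 sums of the 2 midbrain groups overlapped.

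Set against SOXC, the SOXB1 sum changed from 1.08 ± 0.0248 times the SOXC sum in hPSC to 2.30 ± 0.0888 in aNE and 2.37 ± 0.0657 in pNE. In forebrain medium it stayed above 1, at 1.91 ± 0.0117 in anterior and 1.41 ± 0.0760 in posterior cells. In midbrain and hindbrain media it was below 1, from 0.582 ± 0.0486 in aNE_M to 0.766 ± 0.0935 in pNE_M. Within SOXC, SOX4 was 4.15 ± 0.0185 times SOX11 in hPSC, 1.08 ± 0.0120 times in aNE and 1.63 ± 0.247 times in pNE.

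**Figure D2:**
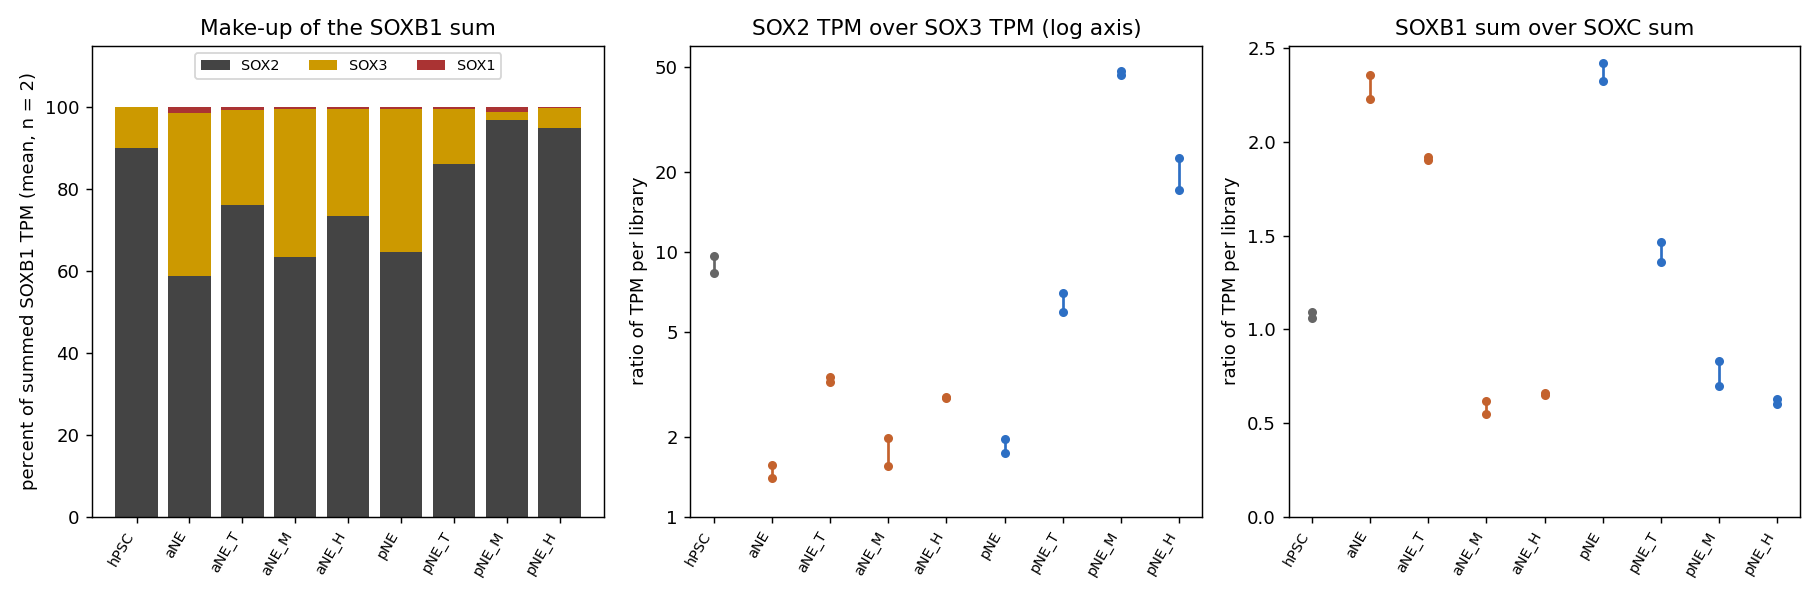
Left, share of SOX1, SOX2 and SOX3 in their summed TPM (percent, stacked bars, mean of 2 libraries) in the 9 groups; middle, ratio of SOX2 to SOX3 (log axis); right, ratio of the SOXB1 to the SOXC sum (linear axis). Points in the 2 ratio panels are libraries, joined by a line within a group. SOX2 over SOX3 reaches 47.4 in pNE_M against 1.76 in aNE_M, and the right panel falls below 1 in the 4 midbrain and hindbrain groups.

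The first comparison asks which of the genes change as stem cells become neural ectoderm. SOX21, SOX3 and SOX1 rose in both populations, SOX11 rose in aNE, and SOX2 was called in neither. Calls required an adjusted p under 0.05 and a log2 change of at least 1 in either direction (limma, Benjamini-Hochberg over 17033 genes). Over all comparisons the median log2 change of all genes lay within 0.0789 of 0. Of the 14 values of the 7 members in the 2 comparisons 7 were called, where 13.2% of all values were. In aNE, 4 of 7 tested members were called, all higher, where 13.5% of all genes were called and 7.36% were called higher; the median over the 7 was 1.56, against 0.06 over all genes. The log2 changes were 7.04 ± 0.20, adjusted p = 3.35e-11 for SOX21, 3.16 ± 0.19, adjusted p = 5.80e-08 for SOX3 and 3.02 ± 0.20, adjusted p = 1.05e-07 for SOX1. SOX11 rose by 1.56 ± 0.13, adjusted p = 7.17e-07, a 3.02-fold higher TPM, while SOX4 differed by -0.35 and SOX2 by 0.61, both under the fold threshold. In pNE, 3 of 7 were called, all higher, where 12.9% of all genes were called and 7.14% were called higher; the median over the 7 was 0.36, against 0.05 over all genes. SOX21 rose by 5.79 ± 0.20, adjusted p = 2.03e-10, SOX3 by 2.25 ± 0.19, adjusted p = 1.36e-06 and SOX1 by 1.08 ± 0.20, adjusted p = 8.04e-04. The SOX1 value was 0.90 with quantile normalization, under the threshold, and with a pseudocount of 0.1 the SOX1 changes were 6.07 in aNE and 3.51 in pNE. SOX4 in pNE was -0.97 ± 0.07, adjusted p = 3.42e-07, just short of the fold threshold, and -1.05 with median-ratio scaling and -1.04 without pNE replicate 2, past it. Both populations were set against the same 2 hPSC libraries.

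At day 2 and at equal plating density, pNE had less SOX1, SOX21 and SOX11 than aNE. These 3 of 7 members were called, all lower, where 3.85% of all genes were called and 1.48% were called lower. The median over the 7 was -0.90, against -0.01 over all genes. SOX1 was lower by a log2 difference of -1.94 ± 0.20, adjusted p = 2.12e-05, or 6.33-fold in TPM. SOX21 was at -1.25 ± 0.20, adjusted p = 8.03e-04, 2.39-fold lower, and SOX11 at -1.20 ± 0.13, adjusted p = 2.72e-05, 2.31-fold lower. The other 4 members also had negative differences with adjusted p under 0.05, from -0.52 for SOX12 to -0.90 for SOX3, under the fold threshold. In a fit of the 4 compared libraries alone the adjusted p was 0.0529 for SOX21 and 0.0723 for SOX11. Without pNE replicate 1 the SOX11 difference was -0.99, and without pNE replicate 2 that of SOX3 was -1.10, past the threshold.

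At day 4, after 2 days in a shared medium, the 2 branches were compared again, now at unequal plating density. Origin and density cannot be told apart in this comparison. SOX3 was called lower in cells of posterior origin in all 3 media. SOX11 was lower in them with an adjusted p under 0.05 in all 3, past the fold threshold in forebrain medium alone. Over the 3 media 6 of 21 values were called, where 6.78% of all values were. In forebrain medium 3 of 7 members were called, all lower, where 7.77% of all genes were called and 3.97% were called lower. SOX3 was at -1.88 ± 0.19, adjusted p = 9.95e-06, SOX11 at -1.25 ± 0.13, adjusted p = 7.92e-06 and SOX1 at -1.22 ± 0.20, adjusted p = 5.18e-04, while SOX21 was at -0.05 ± 0.20, adjusted p = 0.914. In midbrain medium SOX3 was the 1 member called, at -3.62 ± 0.19, adjusted p = 3.06e-08, or 17-fold lower in TPM, where 5.74% of all genes were called and 2.55% were called lower. SOX2 differed there the other way, by 0.67 ± 0.11, adjusted p = 9.99e-04, under the fold threshold. In hindbrain medium SOX3 at -2.48 ± 0.19, adjusted p = 8.77e-07 and SOX21 at -1.39 ± 0.20, adjusted p = 2.00e-04 were called lower, 2 of 7, where 6.83% of all genes were called and 2.91% were called lower. SOX11 was at -0.84 ± 0.13, adjusted p = 3.82e-04 in midbrain and -0.87 ± 0.13, adjusted p = 2.30e-04 in hindbrain medium, and the hindbrain value was -1.01, past the threshold, without aNE_H replicate 2. With only the 4 compared libraries the adjusted p was 0.0567 for SOX1 in forebrain and 0.0942 for SOX21 in hindbrain medium. With a pseudocount of 0.1, SOX1 was called higher in posterior cells in midbrain medium at 1.32 and lower in hindbrain medium at -1.63, in place of uncalled values of 0.62 and -0.49.

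**Figure D3:**
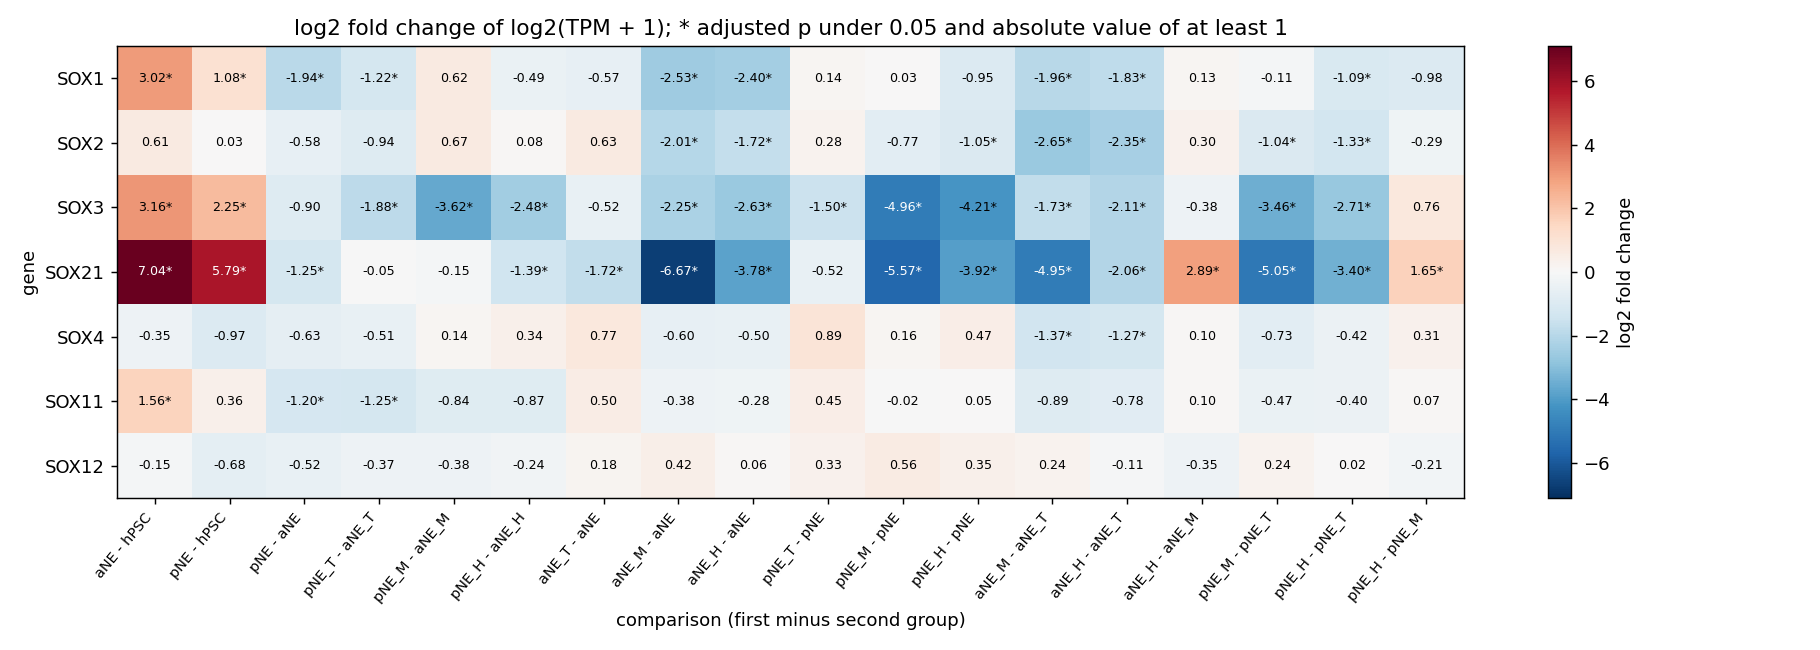
Log2 fold change (log2(TPM + 1) scale, colour) of the 7 tested genes (rows) in the 18 pairwise comparisons (columns, first group minus second); an asterisk marks a call at adjusted p under 0.05 and a log2 change of at least 1. SOX21 and SOX3 carry the strongest colours and SOX12 has no asterisk.

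From day 2 to day 4 the SOXB genes of the anterior branch changed to very different extents in the 3 media. Over both branches and the 3 media 15 of 42 values were called, where 11.1% of all values were. In forebrain medium SOX21 was the 1 member called, at -1.72 ± 0.20, adjusted p = 2.46e-05, where 9.03% of all genes were called and 4.42% were called lower. In midbrain medium 4 of 7 members fell, where 12% of all genes were called and 7.63% were called lower. They were SOX21 at -6.67 ± 0.20, adjusted p = 5.05e-11, SOX1 at -2.53 ± 0.20, adjusted p = 4.78e-07, SOX3 at -2.25 ± 0.19, adjusted p = 1.23e-06 and SOX2 at -2.01 ± 0.11, adjusted p = 1.91e-08, the last a 4.08-fold lower TPM. In hindbrain medium SOX21, SOX3, SOX1 and SOX2 were the 4 of 7 members called lower, where 10.1% of all genes were called and 6.83% were called lower. There SOX21 was at -3.78 ± 0.20, adjusted p = 1.68e-08, 14.7-fold lower in TPM against 294-fold in midbrain medium, and SOX2 at -1.72 ± 0.11, adjusted p = 1.41e-07. None of the 3 SOXC members was called in the anterior branch by limma, though SOX4 passed the adjusted p alone in all 3 media, at 0.77 in forebrain, -0.60 in midbrain and -0.50 in hindbrain medium.

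In the posterior branch SOX3 fell in all 3 media. In forebrain medium SOX3 alone of 7 was called lower (limma), at -1.50 ± 0.19, adjusted p = 6.02e-05. There 10.2% of all genes were called and 5.56% were called lower. In midbrain medium 2 of 7 were called lower, where 12.7% of all genes were called and 7.85% were called lower. SOX21 was at -5.57 ± 0.20, adjusted p = 3.11e-10 and SOX3 at -4.96 ± 0.19, adjusted p = 7.45e-10, which are 165-fold and 43.8-fold lower in TPM. SOX2 was at -0.77 ± 0.11, adjusted p = 1.46e-04 there, under the fold threshold. In hindbrain medium 3 of 7 were called lower, where 12.3% of all genes were called and 7.8% were called lower. These were SOX3 at -4.21 ± 0.19, adjusted p = 4.34e-09, SOX21 at -3.92 ± 0.20, adjusted p = 9.29e-09 and SOX2 at -1.05 ± 0.11, adjusted p = 9.18e-06. The SOX2 call rests near the threshold, at -0.98 with median-ratio scaling, -0.98 with quantile normalization, -0.94 without pNE replicate 2 and -0.95 without pNE_H replicate 2. SOX1 in hindbrain medium was -0.95 ± 0.20, adjusted p = 0.0021, and -2.58 with a pseudocount of 0.1, past the threshold, which it also passed without pNE replicate 1.

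Whether the day 2 to day 4 change differed between the origins was tested as a difference of changes, posterior minus anterior. SOX3 fell further in the posterior branch in midbrain and hindbrain media, and the changes of SOX2 and SOX1 in midbrain medium were more negative in the anterior branch. Of 21 values 7 were called, where 7.33% of all values were. In midbrain medium 4 of 7 members were called, where 7.02% of all genes were called. SOX3 was at -2.71 ± 0.27, adjusted p = 1.73e-05, SOX1 at 2.56 ± 0.28, adjusted p = 3.50e-05, SOX2 at 1.25 ± 0.16, adjusted p = 1.41e-04 and SOX21 at 1.11 ± 0.28, adjusted p = 0.0186. In hindbrain medium 2 of 7 were called, where 7.83% of all genes were called, SOX3 at -1.58 ± 0.27, adjusted p = 0.00144 and SOX1 at 1.45 ± 0.28, adjusted p = 0.003. SOX4 in that medium was at 0.97 ± 0.10, adjusted p = 2.48e-05, below the fold threshold, and past it at 1.04 with median-ratio scaling and 1.06 with quantile normalization. Leaving out aNE replicate 2, aNE_H replicate 1, pNE replicate 2 or pNE_H replicate 2 also put it past the threshold, at 1.02 to 1.04. In forebrain medium SOX21 alone was called, at 1.20 ± 0.28, adjusted p = 0.0117, where 7.14% of all genes were called and 3.17% were called higher. SOX3 was at -0.98 ± 0.27, adjusted p = 0.0333 there, short of the fold threshold, and past it at -1.18 without pNE replicate 1 and -1.11 without pNE_T replicate 1.

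SOX1 lay near or below 1 TPM in all groups but aNE and aNE_T, and SOX21 lay below 1 TPM in both midbrain groups. With 0.1 in place of 1 as the constant added before the logarithm, the difference between origins of SOX1 moved to 3.88 in midbrain medium and to 0.93 (adjusted p = 0.323) in hindbrain medium. SOX21 moved to 0.76 (adjusted p = 0.39) in midbrain medium. Its forebrain difference was 1.21, with an adjusted p of 0.169. Without pNE replicate 1 the forebrain value of SOX21 had an adjusted p of 0.0534. The midbrain value of SOX21 lost its call without aNE replicate 1 (adjusted p = 0.0614), aNE replicate 2 (0.0533), aNE_M replicate 2 (0.0637), pNE replicate 1 (0.0786) or pNE_M replicate 2 (0.082).

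**Figure D4:**
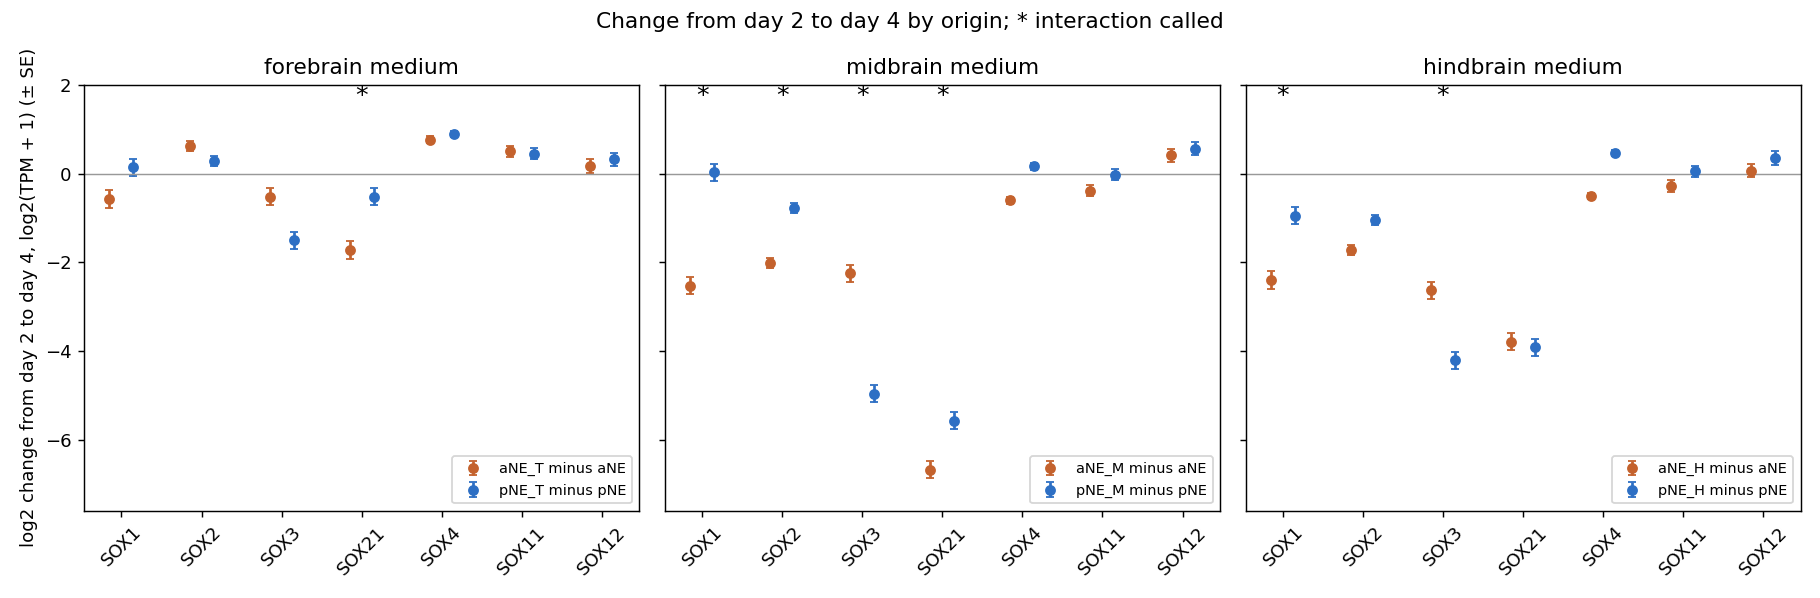
Change from day 2 to day 4 (log2(TPM + 1) scale, vertical axis) of the 7 tested genes in forebrain, midbrain and hindbrain medium, with anterior and posterior cells side by side and bars of 1 standard error; an asterisk marks a called difference between origins. In midbrain medium SOX3 lies at -4.96 in posterior against -2.25 in anterior cells, while SOX2 lies at -0.77 against -2.01.

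In anterior cells SOX4 as well as the tested SOXB genes was lower in midbrain and hindbrain media than in forebrain medium. Against aNE, SOX4 was at 0.77 in aNE_T, -0.60 in aNE_M and -0.50 in aNE_H, none of them called. Over both branches 19 of 42 values between media were called, where 6.87% of all values were. In aNE_M against aNE_T, 5 of 7 members were lower, where 10.1% of all genes were called and 6.55% were called lower. SOX2 was at -2.65 ± 0.11, adjusted p = 1.53e-09, 6.34-fold lower in TPM, and SOX4 at -1.37 ± 0.07, adjusted p = 1.13e-08, 2.61-fold lower. SOX1, SOX3 and SOX21 were the other 3. In aNE_H against aNE_T these 5 of 7 were also lower, where 6.6% of all genes were called and 4.83% were called lower, with SOX2 at -2.35 and SOX4 at -1.27. SOX11 was at -0.89 and -0.78 in these 2 comparisons, under the fold threshold.

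In posterior cells, 3 of 7 members were lower in pNE_M than in pNE_T, where 8.6% of all genes were called and 5.29% were called lower. SOX21 was at -5.05, SOX3 at -3.46 and SOX2 at -1.04, the last at -0.89 without pNE_M replicate 2. In pNE_H, 4 of 7 were lower than in pNE_T, where 5.03% of all genes were called and 3.38% were called lower. They were SOX21 at -3.40, SOX3 at -2.71, SOX2 at -1.33 and SOX1 at -1.09. The SOX1 difference was -0.87 without pNE_T replicate 1 and had an adjusted p of 0.0871 in a fit of the 4 compared libraries. Between the hindbrain and midbrain media SOX21 was the 1 member called in each branch, and it was higher in hindbrain medium. It was at 2.89 ± 0.20, adjusted p = 3.76e-07 in anterior cells, where 4.92% of all genes were called and 2.27% were called higher. In posterior cells it was at 1.65 ± 0.20, adjusted p = 5.59e-05, where 5.99% of all genes were called and 3% were called higher. SOX1 in posterior cells was at -0.98 ± 0.20, adjusted p = 0.00335, just short of the fold threshold. It passed at -2.63 with a pseudocount of 0.1, at -1.08 without pNE_M replicate 1 and at -1.01 without pNE_H replicate 2. SOX3 in the same comparison was at 0.76, and past the threshold at 1.01 without pNE_H replicate 2.

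Other SOX genes, from a list of 11 of which 8 were tested, moved in both directions in these media. In posterior cells in midbrain medium 4 of the 8 rose and 2 fell against pNE, where 12.7% of all genes were called, and their median log2 change was 1.02, where the median of all genes tested was -0.06. SOX9, known from neural stem cells, glia and neural crest, rose from 24.0 ± 3.50 TPM in pNE to 56.8 ± 2.38 in pNE_M, and from 14.4 ± 0.913 in aNE to 112 ± 7.44 in aNE_H. SOX8, of the same SOXE group, reached 46.5 ± 0.499 TPM in pNE_M against 1.55 ± 0.250 in pNE. SOX5 of group SOXD rose from 6.34 ± 0.698 TPM in aNE to 21.3 ± 1.95 in aNE_T. SOX15 was called lower than at day 2 in aNE_M, aNE_H, pNE_M and pNE_H, with 16.9 ± 1.03 TPM in aNE and 3.56 ± 0.299 in aNE_M. SOX13 was called lower in pNE_M, at 42.7 ± 3.62 TPM against 90.7 ± 19.7 in pNE. At day 2, 4 of the 8 rose and 1 fell in aNE against hPSC (median 0.54), where 13.5% of all genes were called.

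The sum of a list of 8 neural crest markers, which holds SOX9 and SOX10, was higher at day 4 than at day 2. This held where SOX2 was low and in aNE_T, where SOX2 was highest. Against aNE, 3 of the 8 were called higher in aNE_T, 4 in aNE_M and 5 in aNE_H (9.03%, 12% and 10.1% of all genes called). Against pNE, 2 were called higher in pNE_T, 5 in pNE_M and 4 in pNE_H (10.2%, 12.7% and 12.3%). SOX10 alone was called lower, in aNE_M, and the median log2 change in pNE_T was -0.03. None of the 8 was listed at 0 in both libraries of any day 2 or day 4 group. Their summed level was 59.5 to 65.9 TPM in hPSC, led by FOXD3 at 33.5, above both day 2 groups and pNE_T. In hPSC 1 of the 8 was at 0 in both libraries. The sum was 24.4 to 24.7 TPM in aNE, 89.0 to 91.1 in aNE_T, 181 to 198 in aNE_M and 201 to 219 in aNE_H. In the posterior branch it was 27.4 to 34.3 TPM in pNE, 40.1 to 43.2 in pNE_T, 135 to 143 in pNE_M and 84.4 to 89.7 in pNE_H. PAX3 at 125 TPM and SOX9 at 46.6 ± 4.72 TPM made up most of the sum in aNE_M. SOX10, 1 of the 8, was at 2.93 ± 0.208 TPM in hPSC, 2.90 ± 0.647 in aNE and 0.647 ± 0.153 in aNE_M. It was at 0.923 ± 0.304 TPM in pNE and 14.5 ± 2.51 in pNE_H. A list of 8 mesendoderm markers summed to 98.0 to 117 TPM in aNE_M and to at most 32.0 TPM in the other groups. MIXL1 alone was at a mean of 86.5 TPM in aNE_M, where 3 of the 8 reached a mean of 1 TPM. GSC was at 29.4 TPM in aNE and made up most of the sum there. Of 6 tested, 3 were called higher and 1 lower in aNE_M than in aNE, where 12% of all genes were called. The part of either list in the lower SOXB levels was not tested.

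Among 8 POU genes, partners of SOX proteins on DNA, 5 were tested. POU5F1, the partner of SOX2 in pluripotent cells, fell in both day 2 populations, by 4.14 in aNE and 4.08 in pNE on the log2 scale. POU3F1, a partner of SOX2 in early neural cells, was at 53.7 ± 2.19 TPM in hPSC and 122 ± 6.22 in aNE, where it was called higher. It then fell in anterior cells in all 3 media, to 21.8 ± 0.914 TPM in aNE_T, 13.9 ± 2.05 in aNE_M and 20.0 ± 3.97 in aNE_H. In posterior cells it fell in midbrain and hindbrain media, to 5.41 ± 0.509 TPM in pNE_M and 10.4 ± 1.73 in pNE_H. POU3F2, a neural POU factor, was at 0.572 ± 0.265 TPM in aNE and 0.670 ± 0.302 in pNE. It was called higher than at day 2 in every day 4 group but aNE_T. Its means in those groups were 24.4 TPM in aNE_M, 4.99 in aNE_H, 9.56 in pNE_T, 13.7 in pNE_M and 18.9 in pNE_H.

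Of 12 progenitor genes that act with or below SOXB1 factors, all were tested, and 6 rose and 0 fell in each day 2 population against hPSC (medians 1.24 in aNE and 0.83 in pNE). Of all genes, 13.5% were called in aNE, 7.36% as higher, and 12.9% in pNE, 7.14% as higher. In aNE_T, the group with the most SOX2, 7 of 12 rose and 0 fell against aNE (median 1.05), where 9.03% of all genes were called. In pNE_T, the posterior group with the most SOX2, 2 of 12 rose and 3 fell against pNE (median 0.01). There 10.2% of all genes were called. In aNE_M, where SOX2 fell, 4 of 12 rose and 2 fell against aNE (median -0.11), where 12% of all genes were called. Against aNE_T, 6 of 12 were lower and 0 higher in aNE_H, where 6.6% of all genes were called, and 5 lower and 1 higher in aNE_M, where 10.1% were. In pNE_M against pNE_T, where SOX2 was also lower, 3 of 12 were higher and 2 lower (median 0.35), where 8.6% of all genes were called. In pNE_H against pNE_T, where SOX2 was lower as well, 1 was higher and 4 lower (median -0.36). There 5.03% of all genes were called. NES, the intermediate filament gene of neural stem cells, was at 282 ± 10.4 TPM in aNE, 615 ± 25.5 in aNE_T and 186 ± 6.14 in aNE_M. PAX6, a regulator of forebrain and eye progenitors, was at 29.1 ± 0.287 TPM in aNE and 1.94 ± 0.852 in pNE, and at 34.6 ± 8.95 in pNE_T. HES5, a Notch target of neural progenitors, had its highest group mean, 1.17 ± 0.113 TPM, in aNE_T.

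Neuronal genes, the best known SOXC targets, moved in both directions. Of 21 listed, 15 were tested; in aNE against hPSC 3 rose and 2 fell (median 0.05), where 13.5% of all genes were called. In pNE_T against aNE_T 3 were higher and 5 lower (median -0.44), where 7.77% of all genes were called. TUBB3, a neuronal tubulin also made in stem cells, led the neuron markers in every group, at 226 ± 9.21 TPM in hPSC and 391 ± 10.8 in aNE. STMN2, made by young neurons, was at 21.4 ± 1.40 TPM in aNE_M, and NEUROG2, a proneural factor, at 19.5 ± 7.55 in pNE_M. Of the 15 tested, 2 were called higher and 2 lower in aNE_M than in aNE, where 12% of all genes were called. In pNE_M 3 were called higher and 0 lower than in pNE, where 12.7% of all genes were called. Of 8 neuron markers, 2 reached a mean of 1 TPM in aNE_M and 1 in pNE_M.

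Genes whose group means were most like each member's were found by Pearson's r over the 9 group means among 12451 genes, a description over 9 points that share 18 libraries. For SOX2 they were NLRX1 (r = 0.972), FNDC4 (0.957) and INPP5J (0.945), and for SOX3 BBC3 (0.982), ABL1 (0.971) and ULK1 (0.969). For SOX21 they were SH3BP4 (0.975), ANKRD11 (0.973) and ZC3H7B (0.971), and for SOX1 PKD1P4 (0.968), PKD1P1 (0.962) and CCZ1P1 (0.960), which are pseudogenes. For SOX11 they were LDB1 (0.981), SYT11 (0.967) and CAVIN4 (0.963), and for SOX4 TSSK6 (0.922), KATNAL2 (0.912) and TRANK1 (0.908). The lowest r was -0.980 for KYAT3 with SOX1, -0.977 for ZDHHC5 with SOX2, -0.965 for PSMB5 with SOX3, -0.983 for RPS21 with SOX21, -0.943 for CCDC33 with SOX4 and -0.945 for SNCG with SOX11. No member was among the 3 nearest to another, and the closest pairs of members were SOX3 with SOX21, SOX1 with SOX21 and SOX2 with SOX4, each at r = 0.77. SOX12 was left out because its group means spanned less than 1 on the log2 scale.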

How the data were processed

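RNA was poly-T selected and sequenced by a service provider, per the labels' protocols. Reads passed through bcl2fastq, FastQC, Trim Galore and kallisto on hg38, per the submitters' processing notes; versions and the transcript set are not given in the sources used here. The authors deposited 1 table of TPM values per gene and library, which hold no read depth. All 18 columns were mapped to samples by name, and 0 were left unmapped. Genes that reached 1 TPM in 2 or more libraries were tested with limma 3.58.1 in R 4.3.3 on log2(TPM + 1), with 1 mean per group, a trend of variance on level and 9 residual degrees of freedom. Fold changes on this scale understate those of low genes, and folds called TPM folds are ratios of group means. P-values were adjusted over 17033 genes by Benjamini-Hochberg. The procedure was tested on simulated data. All 8 members are named; genes of the companion lists are named where a group mean reached 5 TPM, and for each member the 3 genes most like it and the 1 least like it. HES5 was named outside this rule, after its values were seen. The members and lists were chosen with earlier results of these data known. Motifs were searched on both strands of RefSeq promoters (GRCh38.p14). Alternatives were other pseudocounts, filters, scalings, thresholds, variance models, sample sets, a replicate block and leaving out each library.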

Additional observations from a re-analysis of the deposited data

Results flagged for a closer look

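For 7 values the change from day 2 to day 4 differed between the origins by the test of the difference itself (limma, posterior minus anterior, log2(TPM + 1) scale). In midbrain medium these were SOX1 at 2.56, SOX2 at 1.25, SOX3 at -2.71 and SOX21 at 1.11. In hindbrain medium they were SOX1 at 1.45 and SOX3 at -1.58, and in forebrain medium SOX21 at 1.20. The SOX1 values and the midbrain SOX21 value involve groups near or below 1 TPM, and all 7 set cells plated at 150000 per cm2 against cells plated at 75000 per cm2.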

How the results depend on the processing

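Over the 147 values of 7 genes in 21 comparisons, 57 were called, and 49 of these kept their call under every scaling, pseudocount, filter, block, trend and leave-one-out alternative; no called value changed direction. With the adjusted p alone (limma) the members called numbered 12 for day 2 against hPSC, 7 for pNE against aNE, 13 for origin at day 4, 29 for day 4 against day 2 and 11 for the difference between origins, in place of 7, 3, 6, 15 and 7. Of 17033 genes tested, the adjusted p alone called 7073 in aNE and 6538 in pNE against hPSC, and 2321 for pNE against aNE. Per comparison it called 2834 to 3724 for origin at day 4 and 5166 to 6334 for day 4 against day 2. For the difference between origins it called 2103 to 2750. With a log2 change of at least 2 the members called numbered 0 for pNE against aNE and 2 for origin at day 4. They numbered 10 in place of 19 between media and 2 for the difference between origins. Of all genes, that fold threshold called 137 for pNE against aNE and 249 to 369 per comparison for origin at day 4. It called 148 to 464 between media and 353 to 373 for the difference between origins. Only the compared libraries gave 1 member call for pNE against aNE, where 355 of all genes were called. A pseudocount of 0.1 gave 4 member calls for the difference between origins, where 1180 to 1370 of all genes were called per medium. Leaving out 1 library gave 7 to 8, 2 to 4, 6 to 7, 14 to 16, 18 to 21 and 6 to 8 calls for day 2, pNE against aNE, origin at day 4, day 4 against day 2, media and the difference between origins. Uncalled values near 0 changed sign: with median-ratio scaling SOX2 in pNE against hPSC was -0.0432, SOX21 in pNE_T against aNE_T 0.0045 and SOX11 in pNE_M against pNE 0.0241; with quantile normalization the last 2 were 0.0063 and 0.0291. Without 1 library, uncalled values that changed sign ranged from -0.0813 to 0.14 for SOX2 in pNE against hPSC, -0.12 to 0.0163 for SOX21 in pNE_T against aNE_T, -0.39 to 0.0874 for SOX21 in pNE_M against aNE_M, -0.0615 to 0.23 for SOX2 in pNE_H against aNE_H, -0.12 to 0.24 for SOX12 in aNE_H against aNE, -0.0792 to 0.37 for SOX1 in pNE_T against pNE, -0.0704 to 0.13 for SOX1 in pNE_M against pNE, -0.23 to 0.19 for SOX11 in pNE_M against pNE, -0.16 to 0.26 for SOX11 in pNE_H against pNE, -0.29 to 0.0695 for SOX12 in aNE_H against aNE_T, -0.0248 to 0.28 for SOX1 in aNE_H against aNE_M, -0.0352 to 0.24 for SOX11 in aNE_H against aNE_M, -0.34 to 0.11 for SOX1 in pNE_M against pNE_T, -0.10 to 0.15 for SOX12 in pNE_H against pNE_T, -0.27 to 0.16 for SOX11 in the forebrain difference between origins, -0.10 to 0.40 for SOX12 in the forebrain difference between origins, -0.11 to 0.40 for SOX12 in the midbrain difference between origins and -0.44 to 0.17 for SOX21 in the hindbrain difference between origins. Deviations of same-numbered libraries correlated at -0.0896 to 0.0762 over 36 pairs of groups, so no shift common to a replicate number was seen. These values cannot show whether same-numbered libraries were made together. With a replicate block the counts of calls stayed 7, 3, 6, 15, 19 and 7. With Spearman's rho in place of Pearson's r, 5 of the 18 nearest genes named were found again. With 2 libraries a group and no read depth, small differences near 1 TPM are poorly resolved.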
